A study of Homo sapiens with 12 samples.

Results

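Primed nucleolus-associated domains (NADs) of H9 cells, an established line of human embryonic stem cells, are described here on chromosomes 1 to 22. They are all regions of those chromosomes in the list deposited for the primed state, 28558 of the 91744 regions that the study's 2 lists hold over all chromosomes. The cells were primed H9 cells kept in mTeSR medium without treatment, and per the labels the list belongs to 6 libraries, 3 of nucleolar DNA and 3 of whole-cell DNA. The other 6 of the 12 libraries came from naive H9 cells kept in RSeT medium. Nucleoli were pelleted from crosslinked, sonicated cells, and PCR-free libraries of 350 bp fragments were read as 150 bp pairs. H9 is a single line. Only DNA was measured, so the primed state could not be checked against marker genes. The labels and the deposited file name the primed list differently, and whether both hold the same regions was not settled. One list stands for all 6, and it gives a start and an end for each region and no score. The spread between cultures can therefore not be given for any value below, the read depth is unknown, and differences between classes of genes or windows are descriptions of this list without a test.

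The nucleolus forms around the ribosomal RNA genes and is the site of ribosome assembly. Chromosomal DNA that lies at its edge co-purifies with it, and in many cell types this DNA is largely silent, late-replicating chromatin shared in part with the nuclear lamina. Primed pluripotent cells correspond to an epiblast around implantation, express core factors such as POU5F1, SOX2 and NANOG, and hold developmental genes in a repressed, inducible state.

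Sequences are shown for genes at the extremes of the map. Promoters, here 300 bases from 250 before to 50 after a start site, come from RefSeq on GRCh38.p14, the assembly also called hg38, and capitals mark each CG dinucleotide, which reads the same on both strands. The first pair belongs to the longest protein-coding genes lying wholly in primed NADs, the receptor phosphatase gene PTPRT (chr20:43189857-43190156, minus strand) and the acid-sensing channel gene ASIC2 (chr17:33293246-33293545, minus strand).
PTPRT: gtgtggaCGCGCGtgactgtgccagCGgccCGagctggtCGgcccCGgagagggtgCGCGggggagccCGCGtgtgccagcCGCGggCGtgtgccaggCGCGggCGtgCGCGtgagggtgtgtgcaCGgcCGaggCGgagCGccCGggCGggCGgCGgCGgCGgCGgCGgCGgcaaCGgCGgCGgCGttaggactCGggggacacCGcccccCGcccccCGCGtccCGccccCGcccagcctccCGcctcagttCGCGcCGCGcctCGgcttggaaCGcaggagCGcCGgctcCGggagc
ASIC2: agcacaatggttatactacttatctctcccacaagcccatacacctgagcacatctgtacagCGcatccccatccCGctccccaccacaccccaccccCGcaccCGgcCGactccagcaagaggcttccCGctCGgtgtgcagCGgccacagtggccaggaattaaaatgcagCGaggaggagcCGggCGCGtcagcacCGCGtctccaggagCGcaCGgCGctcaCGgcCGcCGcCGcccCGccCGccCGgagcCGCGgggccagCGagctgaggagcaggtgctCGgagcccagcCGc
The second pair belongs to very long genes with no base in a primed NAD, the glypican gene GPC5 (chr13:91398371-91398670, plus strand) and NAALADL2 (chr3:174859084-174859383, plus strand).
GPC5: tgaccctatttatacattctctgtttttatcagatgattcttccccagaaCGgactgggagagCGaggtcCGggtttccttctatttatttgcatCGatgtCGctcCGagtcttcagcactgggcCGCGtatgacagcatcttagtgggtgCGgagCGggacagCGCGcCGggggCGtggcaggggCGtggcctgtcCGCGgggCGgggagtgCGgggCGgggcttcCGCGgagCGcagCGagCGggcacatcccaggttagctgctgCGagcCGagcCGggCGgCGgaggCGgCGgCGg
NAALADL2: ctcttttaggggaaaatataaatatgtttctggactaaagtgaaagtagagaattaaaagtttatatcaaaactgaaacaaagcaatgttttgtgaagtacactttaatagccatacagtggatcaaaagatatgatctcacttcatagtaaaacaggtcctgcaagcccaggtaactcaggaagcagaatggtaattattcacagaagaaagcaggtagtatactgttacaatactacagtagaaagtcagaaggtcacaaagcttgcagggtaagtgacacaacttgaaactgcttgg
The start sites of ASIC2 and NAALADL2 in that table lie 863 and 418 kb inside the outer end of the gene. PTPRT carries 53 CG, ASIC2 29, GPC5 33 and NAALADL2 0, so a CG-rich promoter occurred in both pairs. Of 15101 coding promoters, 98.1% held at least 1 CG.

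The microRNAs below are abundant in human pluripotent cells, and are shown because their clusters lay in primed NADs of very different length. They were picked from background knowledge after the values were seen, and all 8 of the hairpins sought were matched in RefSeq. Of all microRNA genes, 60.0% touched a NAD. Hairpins of a cluster share a region and are not independent observations. Capitals mark the seed, bases 2 to 8 of the mature strand. The 4 strands of the miR-302 family, from chromosome 4, share the seed AAGUGCU with miR-372-3p and miR-373-3p from chromosome 19, while miR-371a-3p and miR-367-3p each have a seed of their own.
hsa-miR-302a-3p: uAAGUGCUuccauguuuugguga
hsa-miR-302b-3p: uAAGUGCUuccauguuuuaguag
hsa-miR-302c-3p: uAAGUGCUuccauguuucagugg
hsa-miR-302d-3p: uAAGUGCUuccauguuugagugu
hsa-miR-372-3p: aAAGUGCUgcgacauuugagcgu
hsa-miR-373-3p: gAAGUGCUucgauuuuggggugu
hsa-miR-371a-3p: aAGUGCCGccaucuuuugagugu
hsa-miR-367-3p: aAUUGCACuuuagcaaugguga
The 5 hairpins of the miR-302 and miR-367 cluster (chromosome 4, 112647877 to 112648547, within the bounds of LARP7, which encodes a partner of the 7SK RNA) lay in a region of a single 10 kb bin, 112640001 to 112650000. The nearest primed NADs were 200 kb before it and 50 kb after it, and 7% of the surrounding 1 Mb was covered. LARP7 had 48.9% of its body in NADs. The 3 hairpins of the miR-371 to miR-373 cluster lay inside the NAD of 9298 kb that ends at the tip of chromosome 19, where the surrounding 1 Mb was covered to 100%.

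Primed NADs were a few long blocks among a large number of very short regions. They covered 1205 Mb, or 43.7% of the 2757 Mb analysed, and, except for 11 of them, region limits fell on multiples of 10 kb. The mean length was 42.2 kb and the median 10 kb, a single bin. Regions of 1 bin made up 51.8% of the list and held 12.3% of its sequence. The 100 regions of at least 1 Mb were 0.350% of the list and held 22.7% of its sequence. Ordered by length, the regions of at least 110 kb together held 50% of the covered sequence, and the longest spanned 21.4 Mb.

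Spacing was dense, with a long tail. There were 28527 gaps between neighbouring regions, after 9 gaps that hold a long empty stretch such as a centromere had been left out. The median gap was 20 kb, the middle 50% of gaps ran from 10 to 40 kb, and 45.7% were a single bin. Gaps of at least 100 kb were 9.26% of the number and held 61.9% of the uncovered sequence, while single-bin gaps held 8.42% of it. After regions up to 10 kb apart were joined, 15512 regions were left, and after regions up to 50 kb apart were joined, 4779.

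Gap length followed the length of the neighbouring region. Beside single-bin regions, 34.7% of gaps were 1 bin and 15.4% at least 100 kb. Beside regions of 100 kb to under 1 Mb the same shares were 80.2% and 0.676%. Regions of at least 1 Mb had 80.4% single-bin gaps and 3.61% of at least 100 kb. Each gap was counted once for each of its neighbours. Neighbouring regions were alike in length (Spearman's correlation 0.349 over the gaps, a description, since neighbours share a chromosome). Among the 14798 single-bin regions, 1163 stood at least 100 kb from the next region on both sides. These isolated regions were 7.86% of the single bins, and the median gap beside a single-bin region was 20 kb. Most gaps beside regions of at least 50 kb were thus a single bin.

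**Figure D1:**
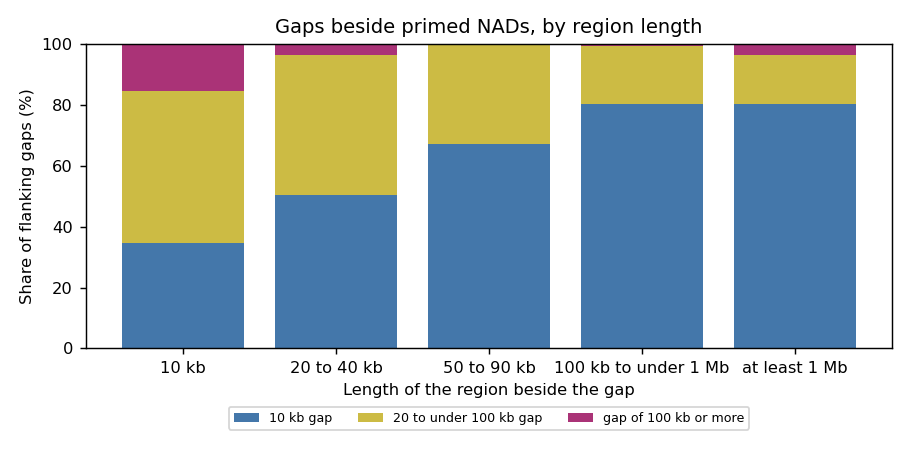
Share of gaps (vertical axis, %) that are 10 kb, 20 to under 100 kb, or at least 100 kb long, beside primed NADs of 5 length classes (horizontal axis). Single-bin gaps make up 34.7% beside 10 kb regions and 80.2% beside regions of 100 kb to under 1 Mb.

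The open stretches were long and held genes. There were 172 gaps of at least 1 Mb, 377.9 Mb in all, and 84.3% of them lay on chromosomes 1 to 8. They held 843 protein-coding genes whole, or 2.23 per Mb, against 6.88 per Mb over the sequence analysed. Genes that cross the edge of such a gap count in the second value only, which widens the difference. In 94.8% of them the regions on both sides were single bins. The longest was 8.30 Mb of chromosome 2 (178270001 to 186570000) with 25 coding genes, among them the titin gene TTN of striated muscle and the phosphodiesterase gene PDE1A. The next, 7.97 Mb of chromosome 7 (109850001 to 117820000), also held 25, including the forkhead gene FOXP2 and DOCK4, a regulator of small GTPases. On chromosome 1, the stretch from 213580001 to 220680000 held 20 coding genes, including the nuclear receptor gene ESRRG. The naive list held 138, 154 and 120 regions inside these 3 stretches. Over all chromosomes the 2 lists hold 91744 regions, of which 29994 are primed. Whether the naive counts differ from the usual density of the naive list was not tested.

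Windows of 1 Mb showed where the map was full and where it was empty. Of 2754 windows, 46.0% were covered to less than 30% and 19.03% to at least 90%. The median was 38% and the mean 43.7% ± 36.9 (SD over windows), with 205 windows at 0 and 179 at 100%. The class under 10% was the fullest with 821 windows, the class of 90% and more was next with 524, and each class of 10 points between 30% and 80% held 132 to 180. Without chromosomes 19 to 22, a choice made after the values were known, 14.1% of windows were covered to at least 90%.

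The number of regions per window is a poor guide to cover. Its median was 2 in windows under 10%, 24 in windows of 40 to 50% and of 50 to 60%, and 3 in windows of 90% and more. The longest stretch of cover in a window had a median of 10 kb in the emptiest class and 670 kb in the fullest. The most regions in any window was 31.

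**Figure D2:**
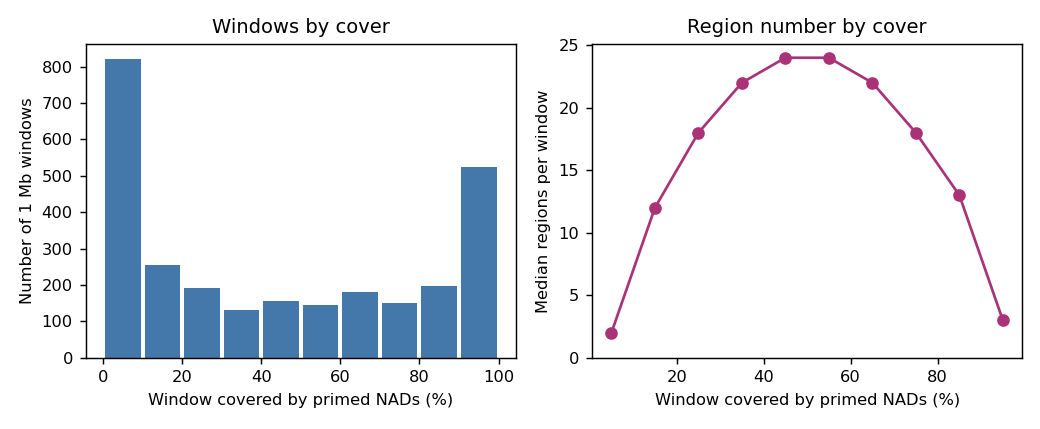
Left, number of 1 Mb windows (vertical axis) by the share of the window covered by primed NADs (horizontal axis, %). Right, median number of regions per window for the same classes of cover. The outer classes hold 821 and 524 windows, and region number is highest, at 24, between 40% and 60%.

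Windows of like cover lay together. Pearson's r between the cover of adjacent windows was 0.966 over 2724 pairs, and at distances of 5, 10 and 20 Mb it was 0.802, 0.617 and 0.402. With each chromosome's mean removed, r was 0.891 at 2 Mb and 0.159 at 20 Mb. These are descriptions, because windows of a chromosome share its level. Windows covered to at least 90% formed 100 unbroken runs, of which 33 were at least 5 windows long. Those 33 runs held 392 of the 524 windows, and the longest had 30. Windows under 10% formed 99 runs. Of these, 50 were at least 5 windows long, with 727 of the 821 windows, and the longest had 63.

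Chromosomes had very different mixtures of full and empty windows. The median window was above 85% on 6 chromosomes (14, 16, 19, 20, 21 and 22) and under 25% on 8. Chromosome 4 had the lowest median, 4.5%, with 77.4% of its windows under 30%, and chromosome 13 followed at 9.5%. On chromosome 19 the median was 100% and 93.0% of windows were covered to at least 90%. Chromosomes 1, 7 and 13 were among those that held both full and empty windows. On chromosome 1, 15.6% of windows were at least 90% covered and 52.4% under 30%. Chromosome 7 had a median of 19%, with the middle 50% of windows from 2 to 71.5%. On chromosome 13, 15.3% of windows were at least 90% covered and 62.2% under 30%. Chromosome 10 had a median of 52.5%, with 16.4% of windows at least 90% covered and 35.8% under 30%. The longest uncovered gap was 0.11 Mb on chromosome 20 and 0.09 Mb on chromosome 22, against 8.30 Mb on chromosome 2.

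**Figure D3:**
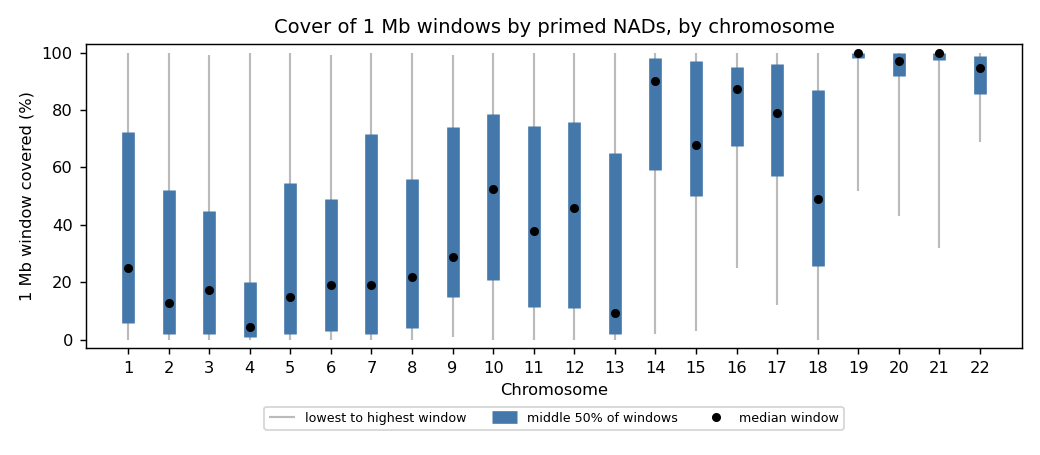
Cover of 1 Mb windows by primed NADs (vertical axis, %) on each of the 22 chromosomes (horizontal axis): points are medians, bars the middle 50% of windows, lines the lowest to the highest window. Medians run from 4.5% on chromosome 4 to 100% on chromosomes 19 and 21.

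Gene-rich windows were the most covered. The 195 windows with over 20 coding genes had a mean cover of 81.3% ± 19.1 (SD over windows), and 2.05% of them were under 30%. The 606 windows with 1 to 2 coding genes had 31.5% ± 36.7, with 64.0% under 30%. Windows without a coding gene, 365 in number, were at 35.6% ± 38.6. Their median was 14% and their upper quartile 78%, so that both empty and full windows occurred among them. Over all windows, cover and the number of coding genes had a Spearman's correlation of 0.330 and a Pearson's r of 0.352, given as descriptions. Within chromosomes Spearman's correlation was above 0 on 16 of 22, from -0.377 on chromosome 19 to 0.530 on chromosome 13, with a median of 0.226. The base composition of windows was not analysed here, and its part in this relation was not tested.

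The 3 gene-densest windows were all over 90% covered. A window of chromosome 17 (7000001 to 8000000), from ALOX12, which encodes an arachidonate lipoxygenase, to the centrosomal protein gene CNTROB, held 64 coding genes and was 94% covered. Of the 64, 61 had their whole body in NADs, beside 40.4% of all coding genes. A second window of chromosome 17 (41000001 to 42000000), from the hair keratin-associated gene KRTAP3-1 to the chaperone gene DNAJC7, held 61, of which 54 lay whole in NADs, and was 93% covered. The third, on chromosome 6 (31000001 to 32000000) in the major histocompatibility complex, ran from MUC22 to the complement gene C4A with 57 coding genes, 46 of them whole in NADs, and was 91% covered. Values of genes with near-identical copies, such as C4A, are uncertain, since reads from copies may not be placed uniquely.

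Short genes had more of their body in primed NADs than long ones. Of 18973 protein-coding genes, 15422 (81.3%) had at least 1 base in a NAD, 60.1% had at least 50% of the body and 40.4% the whole body. Mean body cover was 73.4% ± 43.2 (SD over genes) for the 2889 coding genes under 5 kb, and 57.8% ± 39.1 for the 4575 genes of 20 to 50 kb. For the 303 genes of at least 500 kb it was 34.1% ± 34.7. The mean was lower in each longer class. The share of genes with any overlap ran the other way, from 76.0% under 5 kb to 86.8% at 500 kb and more, and a longer body spans more bins. Genes of at least 200 kb (1340) were at 39.3% and genes under 10 kb (5234) at 72.7%, a difference of -33.4 percentage points.

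The difference was smaller within chromosomes and at like local gene number. Long genes were below short ones on 19 of 22 chromosomes, by -17.8 ± 14.5 points on average (SD over chromosomes). The exceptions were chromosomes 19 (0.860 points, 5 long genes), 21 (5.64 points, 16 long genes) and 22 (4.61 points, 14 long genes). The widest difference was on chromosome 1, with 29.8% for long and 75.9% for short genes. Among genes of windows with 1 to 2 coding genes, short genes were at 43.4% and long ones at 29.2%. In windows with over 20 coding genes they were at 86.7% and 74.7%, the latter from 28 genes. The mean difference over 5 classes of gene number was -11.4 points, a comparison added after the values were known.

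LncRNA genes showed the same gradient at a lower level, and pseudogenes did not. The 17525 lncRNA genes had a mean body cover of 51.3%, from 59.0% under 5 kb to 21.2% for the 41 genes of at least 500 kb. Compared with coding genes they were lower in each of the 8 length classes, by -14.1 points on average, and by -3.83 points when compared within chromosomes. Pseudogenes (14160) were at 50.2% and mostly short, with a median length of 0.631 kb. Under 5 kb they were at 49.5% against 73.4% for coding genes of that length, and from 5 to 50 kb at 63.1 to 67.3%. At 20 to 50 kb they stood at 64.3%, above the 57.8% of coding genes. The 1172 transcribed pseudogenes, with a median length of 9.79 kb, were at 65.5%. This was above the 60.2% of all coding genes, whose median length was 24.8 kb. It was below the 71.7% of coding genes of 5 to 10 kb and the 67.6% of those of 10 to 20 kb.

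**Figure D4:**
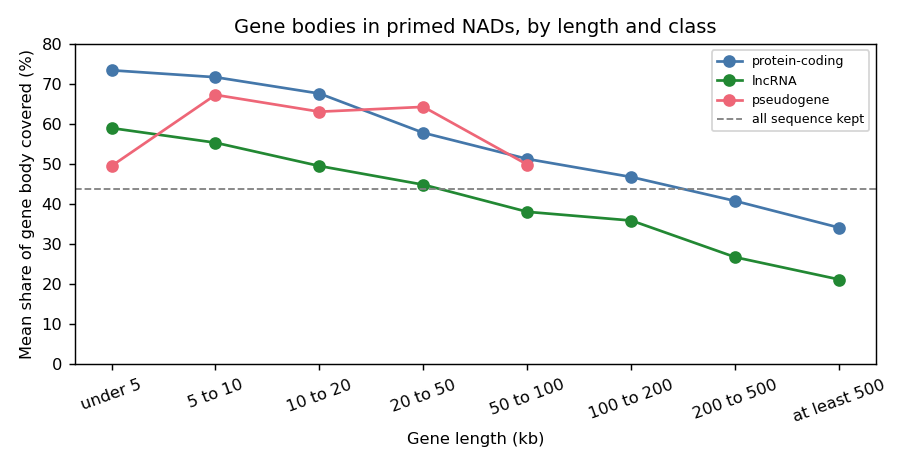
Mean share of the gene body in primed NADs (vertical axis, %) by gene length (horizontal axis, kb) for protein-coding, lncRNA and pseudogenes; the dashed line marks the 43.7% of all analysed sequence. Coding genes go from 73.4% under 5 kb to 34.1% at 500 kb and more, and lncRNA genes from 59.0% to 21.2%.

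Small RNA genes were read from the bin they lie in. Of 425 transfer RNA genes, which decode codons and sit in clusters, 336 (79.1%) touched a NAD, against 67.1% of all 56080 genes. That 67.1% includes long genes that span many bins. By the bin of the gene midpoint, 55.1% of all genes were covered. The same measure gave 78.8% for transfer RNA genes, 59.8% for microRNAs and 59.9% for snoRNAs. Of all genes, 55.2% had at least 50% of the body in NADs, 44.8% the whole body and 32.9% none. The spliceosomal and other snRNA genes were at 74.7% (109 of 146), microRNAs at 60.0% (1076 of 1793) and snoRNAs, guides of RNA modification, at 59.9% (685 of 1144). Of 29 ribosomal RNA genes in the annotation that were placed on these chromosomes, 19 (65.5%) touched a NAD. With a median length of 0.121 kb, these were mostly very short genes. Their count does not describe the ribosomal RNA genes around which the nucleolus forms. Antigen receptor segments, joined only in lymphocytes, were among the highest classes: 192 of 235 V segments (81.7%), 80 of 98 J segments (81.6%) and 30 of 32 D segments (93.8%). Members of these clusters share a few regions, so their number is not a number of independent observations.

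The longest genes held whole in NADs were 654 to 1158 kb long. After PTPRT (1158 kb, chromosome 20) and ASIC2 (1144 kb, chromosome 17) came NPAS3, a neural transcription factor gene (869 kb, chromosome 14). DSCAM, a neuronal adhesion gene (836 kb), lay on chromosome 21, and UNC13C, of synaptic vesicle release (796 kb), on chromosome 15. The polarity gene PARD3 (706 kb) lay on chromosome 10 and the cadherin gene CDH4 (688 kb) on chromosome 20. MTUS2 (686 kb) and the lipid flippase gene ATP8A2 (654 kb) lay on chromosome 13. Of coding genes, 40.4% were whole in NADs, but among those of at least 500 kb it was 17 of 303.

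The longest genes without any base in a NAD were 898 to 1900 kb long. They were LRP1B, of the LDL receptor family (chromosome 2), GPC5 (chromosome 13), NAALADL2 (chromosome 3), GALNTL6 (chromosome 4), CSMD3 (chromosome 8), the receptor kinase gene ERBB4 (chromosome 2), ZNF385D and the adhesion gene CNTN4 (both chromosome 3), IMMP2L (chromosome 7) and the synaptic adhesion gene NLGN1 (chromosome 3). None lay on chromosomes 14 to 22. Without a base in NADs were 3551 coding genes in all (18.7%).

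The 10 longest coding genes of the annotation lay at both ends of the scale. RBFOX1, a neuronal splicing factor gene (2474 kb, chromosome 16), was covered to 90.7% and MACROD2 (2058 kb, chromosome 20) to 95.4%. EYS, a photoreceptor gene (1987 kb, chromosome 6), was at 68.3% and CSMD1 (2060 kb, chromosome 8) at 38.1%. The cell adhesion gene CNTNAP2 (2304 kb, chromosome 7) was at 1.30%, the receptor phosphatase gene PTPRD (2299 kb, chromosome 9) at 1.87% and the synaptic scaffold gene DLG2 (2173 kb, chromosome 11) at 3.68%. LRP1B was at 0, CTNNA3 at 10.8% and the protocadherin gene PCDH15 at 18.1%, both on chromosome 10. Genes of like length thus differed by over 90 points in body cover.

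Keratin-associated protein genes and keratins were nearly full. Of 94 keratin-associated protein genes, which form the hair shaft, 92 were in NADs and all 92 with the whole body (97.9%, beside 70.7% for coding genes under 5 kb). The members named by length, KRTAP23-1 and KRTAP10-4 on chromosome 21 and KRTAP1-4 on chromosome 17, were each at 100%. Of 55 keratins, the intermediate filaments of epithelia, 54 touched a NAD, with a mean body cover of 93.5%. KRT16 (chromosome 17) was at 92.5% and KRT3 and KRT8 (chromosome 12) at 100%. The mean over all coding genes was 93.8% on chromosome 21, 80.3% on chromosome 17 and 58.7% on chromosome 12. ZNF-named zinc finger genes, largely transcription factors, were in NADs for 467 of 497 (mean 83.9%), and 49.5% of them lie on chromosome 19. The mean over all coding genes of chromosome 19 was 98.1%. Coding genes of 20 to 50 kb, the class of the family's median length (23.5 kb), touched a NAD in 81.2% of cases, with a mean of 57.8%. The longest and median-length ZNF-named genes were low, ZNF385D at 0 and ZNF510 at 23.1%, and the shortest, ZNF593, had 9.63%. Olfactory receptors were in NADs for 321 of 388 (82.7%), about the 81.3% of all coding genes, and had a mean body cover of 76.8%, beside 73.4% for coding genes under 5 kb, with OR4X2 and OR5BS1 at 100% and OR51B5 at 66.3%. Members of these families lie in clusters and share regions.

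Housekeeping families and transporters had means of 59.2 to 73.4%, beside 60.2% for all coding genes. Coding genes of 5 to 10 kb were at 71.7%, those of 10 to 20 kb at 67.6% and those of 20 to 50 kb at 57.8%. Median lengths were 8.62 kb for mitochondrial ribosomal protein genes and 13.6 kb for proteasome genes. They were 12.3 kb for complex I subunit genes and 36.9 kb for solute carriers. Of 47 proteasome genes, 43 touched a NAD (mean 72.8%): PSMB11 was at 100%, PSMG4 at 59.0% and PSMA1 at 31.5%. Cytosolic ribosomal protein genes, with a median length of 5.03 kb, touched one in 62 of 82 cases (75.6%). The share was 81.3% for all coding genes, 76.0% for those under 5 kb and 80.2% for those of 5 to 10 kb. By body these ribosomal protein genes were at 73.4%, with RPL10L and RPS29 at 100% and RPS23 at 0. Mitochondrial ribosomal protein genes were at 62 of 77 and 68.1%. Their shortest and median-length members, MRPL41 and MRPL18, were at 100% and the longest, MRPS28, at 8.97%. Complex I subunit genes of the respiratory chain were at 27 of 34 and 64.6%, with NDUFA2 and NDUFA11 at 100% and NDUFA10 at 49.2%. Solute carriers were at 299 of 365 and 59.2%, with SLC35G4 at 100% and SLC24A2 at 21.2%.

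Developmental regulators were mixed, beside 81.3% of all coding genes and 76.0% of those under 5 kb touching a NAD. HOX genes, which pattern the body axis, had the lowest cover among the families whose median length was under 10 kb: 21 of 39 touched a NAD and the mean body cover was 44.2%, with HOXD4 at 0, HOXC8 at 26.8% and HOXA3 at 49.6%. They form 4 clusters, so these counts rest on few regions. Of 18 SOX genes 15 touched one (mean 55.2%; SOX15 and SOX8 at 100%, SOX5 at 20.3%). Forkhead genes did so in 41 of 48 cases (mean 70.2%; FOXD4L4, which has near-identical copies, at 100%, FOXF1 at 0 and FOXP1 at 33.4%).

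The very long genes listed under neuronal adhesion had low cover, and other families with long genes were near coding genes of their length. Coding genes of 100 to 200 kb were at 46.8% and those of 200 to 500 kb at 40.8%, and 81.3% of all coding genes touched a NAD. Of 12 neuronal adhesion genes, with a median length of 1518 kb, 9 touched a NAD. Their body cover had a mean of 21.6% and a median of 3.19%. For coding genes of at least 500 kb the mean was 34.1% and the median 19.9%. DSCAM at 100% and the comparatively short NRXN2 at 82.9% were the members above 50%, while NRXN3 was at 19.4%, CNTN5 at 0.747% and CNTN4 and NLGN1 at 0. Glutamate receptors, with a median length of 324 kb, were at 44.2% on average (22 of 25 touched; GRIN3B at 100%, GRIA1 at 9.25%). Potassium channels, with a median length of 40.7 kb, were at 53.0% (69 of 93 touched; KCNA10 at 100%, KCNK3 at 67.0%, KCNIP4 at 22.8%), and cadherins at 49.4% (21 of 23; CDH24 at 100%, CDH7 at 7.14%, CDH13 at 89.8%). The clustered protocadherins of chromosome 5, which give neurons their identity, were touched in 48 of 53 cases with a mean of 46.7% (PCDHB8 at 19.6%, PCDHGA9 at 27.2%, PCDHA1 at 54.1%). Their alpha and gamma genes share exons, so their bodies overlap.

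Of 10 core pluripotency genes 9 touched a NAD, near the 81.3% of all coding genes. Of the 10, with a median length of 11.6 kb, 7 lay whole in one. The share whole in NADs was 40.4% for all coding genes, 62.7% at 5 to 10 kb and 53.1% at 10 to 20 kb. UTF1, SOX2, POU5F1, ZFP42, NANOG, LIN28A and SALL4 were at 100%, the telomerase gene TERT at 83.7%, DPPA4 at 71.4% and PRDM14 at 0. For genes of the nucleolus and RNA polymerase I, 8 of 11 (72.7%) touched a NAD, also near the 81.3% of all coding genes for so short a list. NPM1, FBL, NOP56, the ribosomal DNA factor gene UBTF, RRN3 and POLR1A were at 100%, POLR1B at 47.1% and TAF1B at 45.0%. The nucleolar protein genes NCL, NOLC1 and NOP58 were at 0. No expression was measured.

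The bin with a coding start site was covered more often than its surroundings. Of 15101 coding start sites, 64.8% lay in a covered bin, against 57.9% for the bin 20 kb before, 57.4% 20 kb after and 57.1 to 57.3% at 50 kb on either side. The excess over bins 50 kb away was 7.56 points, and 5.81 points when single-bin regions were left out. It appeared in each of 3 length classes. For genes under 10 kb the start-site bin was at 73.7% and bins 50 kb before it at 67.9%. For genes of 10 to under 200 kb the values were 63.3% and 55.1%, and for genes of at least 200 kb 45.9% and 37.1%. Start sites were at hand for 15101 of the 18973 coding genes and for none on chromosome 8, so that the bins counted below as without one include some that hold one. Bins of a coding body without a listed start site were covered to 44.7%, bins of lncRNA bodies outside coding genes to 38.1% and bins without any gene to 40.5%.

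Start sites were spread over all kinds of region and thinned out with the length of a gap. Of bins in NADs, 7.21% held a listed coding start site, an undercount because chromosome 8 and the unlisted genes add bins and no start sites, from 6.52% in single-bin regions to 8.38% in regions of 50 to 90 kb, with 6.94% in regions of at least 1 Mb. Of uncovered bins 3.13% held one: 5.03% in single-bin gaps, 3.03% in gaps of 100 kb to under 1 Mb and 1.90% in gaps of at least 1 Mb.

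**Figure D5:**
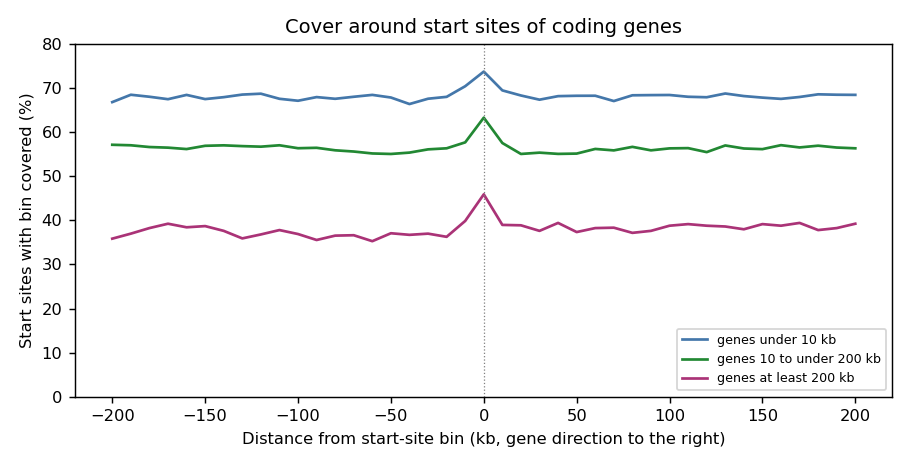
Share of coding start sites whose bin at a given distance was covered by primed NADs (vertical axis, %); the horizontal axis is the distance from the start-site bin in kb, with the direction of the gene to the right. Lines are genes under 10 kb, of 10 to under 200 kb and of at least 200 kb; at distance 0 they stand at 73.7%, 63.3% and 45.9%.

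Promoters in covered bins were richer in CG, with wide overlap. Coding promoters in covered bins held 7.47 ± 4.66 CG per 100 bases (SD, 9781 promoters) and those in uncovered bins 6.53 ± 4.48 (5320 promoters), a difference of 0.934 against SDs of over 4. When genes were divided by a body cover of at least 50% instead of the start-site bin, the difference was 0.422. Their GC content was 62.6% ± 11.5 and 59.3% ± 12.4. By class, 56.7% of the 1467 coding promoters with under 1 CG per 100 bases lay in covered bins and 70.6% of the 4595 with at least 10. For lncRNA promoters the same shares were 40.7% of 3525 and 67.5% of 1247, and covered and uncovered ones held 4.12 ± 4.33 and 2.69 ± 3.66 CG per 100 bases.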

How the data were processed

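Nucleolar and whole-cell DNA of primed H9 cells was sequenced in 6 libraries, grouped by their labels. Each entry of the deposited list is a stretch of hg38 without a score. Per the submitters' processing notes, BWA, SAMtools 1.10 and SICER were used, in roles that are unstated. How regions were called, how 3 replicates were joined into 1 list, and depth are not given in these sources.

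Cover was counted in 10 kb bins on chromosomes 1 to 22. Left out were 14 stretches (117.4 Mb) of at least 500 kb that lacked any gene and any region, primed or naive. Windows of 1 Mb needed 50% of their bins. Genes were 56080 RefSeq genes of GRCh38.p14 on these chromosomes; 676 on other scaffolds were left out. Start sites and promoters were those of RefSeq's table for 15101 coding and 11145 lncRNA genes, and 14509 of the coding ones lay within 10 kb of the gene's outer end. Promoters on chromosome 8 were not used here. Python 3.11.15, numpy 2.4.6, pandas 2.3.3, scipy 1.17.1 and matplotlib 3.10.9 were used, and the counting was tested on simulated data.

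The set of regions, the gene families and the measures were chosen with earlier results of these data known. Named genes were the 10 longest coding genes, the 10 longest whole in NADs and the 10 longest with none, the longest lncRNA, the end genes of the 3 gene-densest windows, and the longest, median-length and shortest member of each family or every member of a family given by name. Those named in uncovered stretches, LARP7 and the microRNAs fall outside this rule and were chosen after the values were seen. Some genes that the rule names are not reported here.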

Additional observations from a re-analysis of the deposited data

Results flagged for a closer look

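Chromosome X lies outside the chromosomes described, and the primed list also holds 1436 regions there, covering 121.4 Mb.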

How the results depend on the processing

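No paired analysis was possible because each state has 1 list and its replicates are not separate, and for the same reason no replicate could be left out. Depth is unknown, so short uncovered stretches and low depth cannot be told apart. Of 74 alternatives over 14 results, 15 stayed within the 95% counting interval of a share or equal to 3 digits, 58 moved and 1 reversed. That interval counts bins, gaps, windows or genes as independent, which neighbours are not, and it holds no spread between cultures. It only sorts the changes by size and is not a test. Leaving out chromosomes 19 to 22, gene-number classes, the limit on start sites, and the start-site excess without single-bin regions were chosen after the data were seen. The share of sequence covered, 43.7%, was 41.9% with long empty stretches kept, 48.5% and 59.7% with regions up to 10 and 50 kb apart joined, 38.4% without single-bin regions and 42.6% without chromosome 19. The length above which regions hold 50% of covered sequence, 110 kb, was 500 and 7920 kb with joining, 160 kb without single-bin regions and 100 kb without chromosome 19. The median gap, 20 kb, was 30 and 100 kb with joining, as joining removes short gaps. Single-bin gaps, 45.7%, were 39.2% without single-bin regions. Windows covered to at least 90% were 17.5% without chromosome 19 and 14.1% without chromosomes 19 to 22. Windows under 30% were 48.1% with empty stretches kept and 52.1% without single-bin regions. Spearman's correlation of cover with coding genes, 0.330, was 0.292 in windows of 500 kb, 0.373 in windows of 2 Mb, 0.329 in shifted windows, 0.391 with empty stretches, 0.318 without single-bin regions, 0.306 without chromosome 19 and 0.323 without chromosomes 19 to 22. Neighbour r, 0.966, was 0.968 at 500 kb, 0.941 at 2 Mb, 0.956 with empty stretches, 0.962 without single-bin regions and 0.965 without chromosome 19. Coding genes in NADs, 81.3% by any overlap, were 60.1% by at least 50% of the body, 40.4% by the whole body, 59.5% by the midpoint, 68.8% without single-bin regions and 79.8% without chromosome 19. The difference of long from short genes, -33.4 points, reversed to 8.34 points when any overlap was counted. It was -34.1 by midpoint, -34.8 without single-bin regions, -30.9 without chromosome 19, -31.2 without chromosomes 19 to 22, -17.8 within chromosomes and -11.4 within gene-number classes. The difference of lncRNA from coding genes, -8.89 points, was -17.2 by any overlap, -8.34 by midpoint, -9.38 without single-bin regions, -7.16 without chromosome 19, -3.83 within chromosomes and -14.1 within length classes. For pseudogenes, at -10.01 points, the same 6 values were -29.9, -9.34, -9.87, -8.68, -4.38 and -5.55. The promoter difference, 0.934 CG per 100 bases, was 0.422 by body cover of at least 50%, 0.991 without chromosome 19, 1.03 within chromosomes and 0.887 with start sites within 10 kb of the outer end. The excess at start sites, 7.56 points, was 7.62 with those start sites, 8.45 without chromosomes 19 to 22 and 5.81 without single-bin regions. The causes of these shifts were not tested.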
